A study of Mus musculus with 20 samples.

Results

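The comparison set the liver of diabetic mice fed 0.5% phloridzin against the liver of diabetic mice fed 0.1% phloridzin. Its members were chosen by their sample titles alone: 5 arrays of each dose, 10 of the 20 arrays in the series. All mice were male BALB/c, 6 weeks old on arrival. Those of both doses had received an intraperitoneal injection of streptozotocin (STZ), a toxin that destroys the insulin-producing beta cells, at 185 mg/kg. After 1 week, 18 STZ mice with a non-fasting blood glucose between 330 and 590 mg/dL were split into a plain AIN93G diet group (called STZ here) and groups on the same diet with 0.1% or 0.5% phloridzin, for 14 days. The 5 STZ arrays and the 5 arrays of untreated mice, which had no injection, serve below as a frame for the levels. The groups had 6 mice each, housed 3 per cage. Each array held the liver RNA of 1 mouse. The cage of a mouse, its own blood glucose and the hour of its death are not given in the sources used here.

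Phloridzin is a dihydrochalcone glucoside of apple tissue that blocks the sodium-glucose cotransporters SGLT1, of the intestine and kidney, and SGLT2, of the kidney. Blocking renal reabsorption sends glucose into the urine, so the compound lowers blood glucose without insulin, and intestinal enzymes can cleave it to its aglycone phloretin. The liver of an insulin-deficient animal makes glucose from amino acids, glycerol and lactate, oxidises fatty acids to ketone bodies and reduces its lipid synthesis. The comparison asks whether liver transcripts differed between the higher and the lower dose.

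The deposited values were linear signals per probe set, with a mean of 100 on every array after the lowest and highest 2% were dropped. The median signal of an array lay between 11.2 and 17.1, and a gene whose mean signal lay below the latter value is called dim here. Replicate 4 of the 0.1% dose stood apart from the other 4 arrays of its dose: its highest signal was 37014 against 14117 to 19414, its mean signal 224 against 185 to 195, and its bioD hybridisation control 14067 against 3173 to 4431. Where leaving it out turned the sign of a printed difference or moved it by over 1.5 times, the value without it is given too. The tissue markers matched liver: albumin (Alb) had a mean signal of 17599.9 ± 9437 at 0.1% and 11787 ± 1089 at 0.5% (SD, n = 5). In a bulk sample, fewer cells of a type and less RNA per cell cannot be told apart.

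No gene differed between the doses at an adjusted p under 0.05. Of 12947 genes tested with limma, 0 were called (0%), and the smallest adjusted p was 0.607. At an unadjusted limma p under 0.05 there were 840 genes (6.49%), 548 higher (4.23%) and 292 lower (2.26%) at 0.5%. Higher genes made up 65.2% of these, and 55.1% when each array was centred on its median. When only the 10 phloridzin arrays were fitted, the counts at that limma p were 454 higher and 189 lower. The counts thus depend on which arrays entered the estimate of the spread. The exact permutation test of 5 against 5 arrays cannot give a p below 0.00794, and it is reached when the arrays of the doses do not overlap. That was so for 104 genes (0.803%), 75 higher (0.579%) and 29 lower (0.224%).

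The intervals say how large a difference these arrays leave possible. Differences are on the scale of log2(signal + 16), 0.5% minus 0.1%, which understates the change of dim genes. The median 95% interval of a gene reached 0.30 log2 units (1.23-fold) to either side. On this scale the whole interval lay within 2-fold either way for 12738 genes (98.4%), and within 1.5-fold for 10407 (80.4%). These shares do not bound the fold change in signal of dim genes. The share within 2-fold was lower with 1 in place of 16 added to the signal, as given in the last section. The widest interval reached 2.66 log2 units to either side. The median absolute difference was 0.11, against a median SD among mice of 0.23 within 0.1% and 0.22 within 0.5%. On the same scale, differences of at least 1.5-fold were seen for 55 genes and of at least 1 log2 unit for 2, none of them called. The signals themselves differed by larger ratios for dim genes, which these counts leave out. Of the spread among the 10 arrays, a median of 6.18% lay between the doses.

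Among genes higher at 0.5%, the smallest p belonged to Lin54. This gene, a DNA-binding subunit of the complex that controls cell cycle genes, had signals of 77.6, 58.5, 65.5, 65.9 and 79.0 in replicates 1 to 5 at 0.1% and of 115, 104, 106, 91.7 and 111 at 0.5%. All 5 arrays of 0.5% were above all 5 of 0.1%. The difference was 0.52 ± 0.10 log2 units (SE; 95% interval 0.31 to 0.73; limma adjusted p = 0.607), and 1 of the gene's 2 probe sets had this direction. Tgfbr1, the type I receptor of TGF-beta, had signals of 266, 229, 294, 226 and 251 at 0.1% and 315, 334, 354, 356 and 345 at 0.5%. It did not overlap either, all 3 probe sets had this direction, and the difference was 0.41 ± 0.10 (adjusted p = 0.753). Brpf3, a scaffold of histone acetyltransferase complexes, had 51.7, 50.2, 67.0, 54.5 and 73.8 at 0.1% and 96.0, 74.8, 111, 84.9 and 123 at 0.5%, again with no overlap and with both probe sets in this direction (0.59 ± 0.13, adjusted p = 0.609).

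Ccdc82 (0.54 ± 0.11), Afap1l2, an adaptor of Src signalling (0.75 ± 0.16), 2610524H06Rik (0.68 ± 0.16) and the zinc finger gene Zfp574 (0.38 ± 0.10) also had arrays that did not overlap. Cox6a2, the muscle form of a cytochrome oxidase subunit (0.71 ± 0.16), Dact3, an inhibitor of Wnt signalling (0.77 ± 0.19), and Chsy1, a chondroitin sulfate synthase (0.50 ± 0.13), overlapped. Afap1l2 had 3.60, 7.19, 11, 3.39 and 8.70 at 0.1% and 14.4, 30.8, 26.6, 22.9 and 17.7 at 0.5%. Its 0.1% signals thus all lay under the median of every array, and its other probe set went the other way. The adjusted p of these genes was 0.609 or 0.753.

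**Figure D1:**
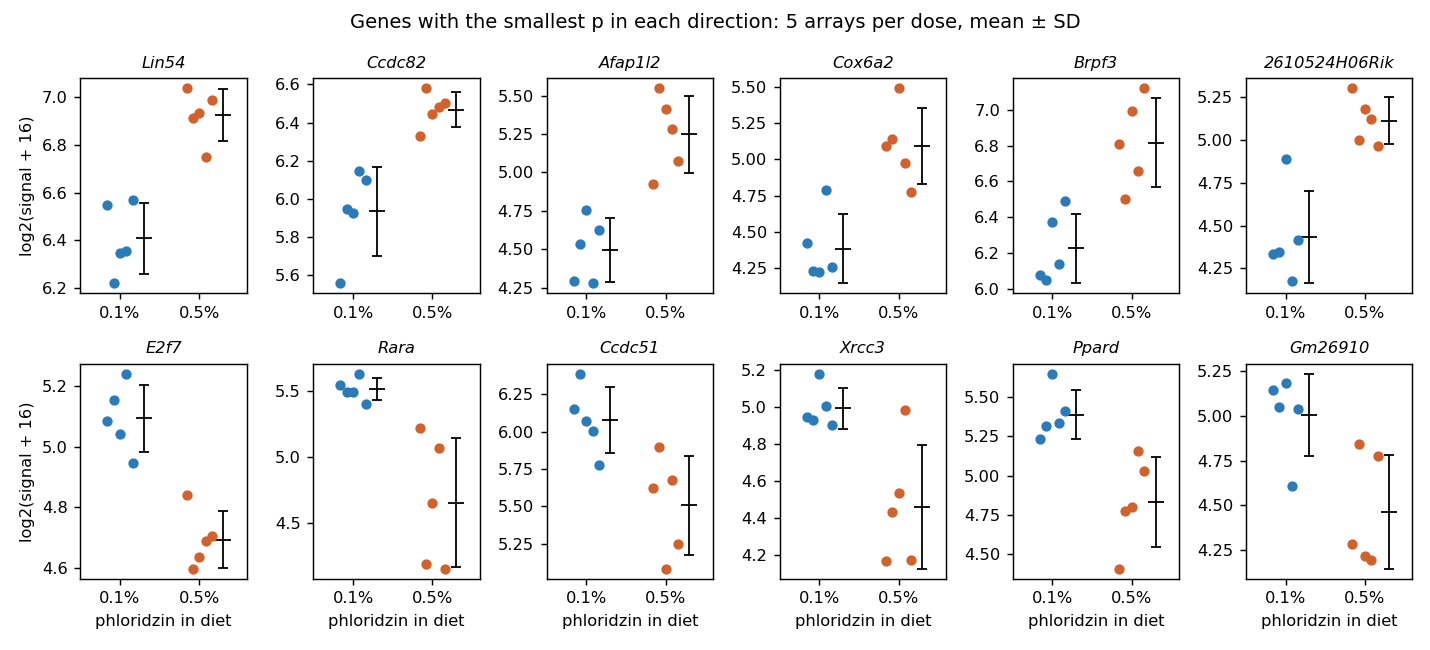
Level of the 6 genes with the smallest p in each direction, as log2(signal + 16), in the 5 arrays of 0.1% (blue) and of 0.5% phloridzin (orange), with mean and SD beside the points. The axes do not start at 0. The points of Lin54 lie apart by dose, those of Xrcc3 overlap, and none of the 12 genes passed adjustment over the 12947 genes.

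Among genes lower at 0.5%, the smallest p belonged to E2f7, an atypical E2F that represses cell cycle genes. Its signals were 18.0, 19.6, 16.9, 21.8 and 14.9 at 0.1% and 12.7, 8.20, 8.90, 9.79 and 10.1 at 0.5%. The arrays did not overlap, but all 10 values were close to the median signal of an array, and the difference was −0.40 ± 0.09 (adjusted p = 0.609). Rara, the retinoic acid receptor alpha, had the largest negative difference of all genes, −0.86 ± 0.22 (95% interval −1.31 to −0.40, adjusted p = 0.753). Its signals were 30.7, 29.0, 29.0, 33.5 and 26.3 at 0.1% and 21.2, 2.25, 9.11, 17.6 and 1.79 at 0.5%. The 0.1% mice lay close together and the 0.5% mice spread over a wide range below them. In the STZ mice the lowest, median and highest Rara signals were 7.58, 15.5 and 32.2, a range that reached into the values of both doses but not to the lowest of 0.5% or the highest of 0.1%.

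Camkk2, a kinase that activates AMPK, had signals of 47.1, 49.8, 54.4, 50.4 and 43.2 at 0.1% and 39.8, 39.1, 32.5, 34.5 and 31.3 at 0.5%. The doses did not overlap and all 4 probe sets had this direction (−0.34 ± 0.10, adjusted p = 0.753). Ppard, the fatty acid receptor PPAR-delta, had 21.6, 23.9, 34.2, 24.4 and 26.7 at 0.1% and 5.14, 11.3, 11.9, 19.6 and 16.7 at 0.5% (−0.56 ± 0.15), but its other probe set went the other way. Fbxl6, an F-box gene, did not overlap (−0.35 ± 0.10). Ccdc51 (−0.57 ± 0.15), 9030619P08Rik (−0.63 ± 0.17) and Frg2f1 (−0.62 ± 0.18) overlapped, as did Xrcc3, a gene of recombination repair (−0.54 ± 0.14), and Gm26910 (−0.54 ± 0.15), both dim at either dose. The adjusted p was 0.753 for each of these 8 genes.

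The genes with the largest differences had wide spreads. Ppp1r3g, which brings protein phosphatase 1 to glycogen, had signals of 48.5, 33.1, 334, 279 and 612 at 0.1% and 846, 140.1, 368, 96.6 and 1216 at 0.5%. Its difference of 1.02 ± 0.76 came with an interval of −0.55 to 2.60 (adjusted p = 0.835), and within each dose the highest mouse was over 10 times the lowest (18.5 and 12.6 times). Tcl1b3, of the TCL1 family, had 115, 240.5, 997, 184 and 224 at 0.1% and 1199, 561, 786, 111 and 796 at 0.5%. Replicate 3 of 0.1% and replicate 4 of 0.5% lay at the level of the other dose, and the difference was 1.03 ± 0.48 (adjusted p = 0.762). The pseudogene Serpina4-ps1 differed by 0.81 ± 0.51, with 1 high array at 0.5% (replicate 2, 183). Its untreated mice had 622, 831 and 953 as lowest, median and highest.

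The other large values were 0.83 ± 0.29 for Gm6958 and 0.82 ± 0.28 for 3110021A11Rik, the latter without overlap (45.0, 24.7, 43.2, 30.2 and 4.72 at 0.1% and 64.9, 79.9, 50.2, 52.2 and 53 at 0.5%). Among lower genes, Bcl6, a transcriptional repressor of the growth hormone response, had 305, 233, 238, 235 and 131 at 0.1% and 191, 109, 155, 56.8 and 153 at 0.5% (−0.76 ± 0.25, adjusted p = 0.753). The doses overlapped because replicate 5 of 0.1% was below 3 of the 0.5% mice. Ly6d differed by −0.85 ± 0.41, the T cell adaptor gene Lat by −0.77 ± 0.27 and the linker histone gene H1f2 by −0.73 ± 0.35, each with overlap. Lat was at 4.11, 7.24, 37.6, 27.4 and 32.5 at 0.1%, so 3 mice lay above the highest of 0.5% (9.54).

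The targets of phloridzin and the sugar transporters of liver gave no call. Of 16 listed genes 13 were measured, with 6 differences above and 7 below 0, a median of −0.03 (0.02 over all genes) and 0 at an unadjusted p under 0.05. Slc2a2, the GLUT2 transporter through which hepatocytes take up and release glucose, had signals of 3722, 3789, 4169, 3855 and 4015 at 0.1% and 4307, 3851, 3819, 4194 and 4439 at 0.5%. The doses overlapped, and the difference of 0.07 ± 0.07 had an interval of −0.08 to 0.23, among the narrowest of the panel (adjusted p = 0.897). Slc5a1, which encodes SGLT1, was dim at both doses (−0.25 ± 0.17). Slc5a2, which encodes SGLT2, had 11.2, 30.9, 42.0, 84.7 and 28.4 at 0.1% and 36.7, 25.0, 29.8, 24.6 and 39.2 at 0.5% (−0.12 ± 0.26), a range within 0.1% that covers all 0.5% mice. Without replicate 4 of 0.1%, the highest mouse, its difference turned to 0.13 and the median of the list to 0.05. With quantile normalization Slc2a2 was at 0.17 and was the 1 member of the list at an unadjusted limma p under 0.05.

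Gluconeogenesis also gave no call, with 5 of 17 measured genes above and 12 below 0, a median of −0.06 and 1 gene at an unadjusted p under 0.05. Pck1, the gene of the committed cytosolic step, had 4593, 6586, 7134, 9755 and 7065 at 0.1% and 7498, 4341, 6296, 4079.7 and 7258 at 0.5%. The ranges overlapped, and the difference was −0.26 ± 0.18 (95% interval −0.63 to 0.12). G6pc, whose enzyme releases free glucose, differed by 0.05 ± 0.24 (interval −0.45 to 0.55), with the lowest mouse of all at 0.5% (replicate 4, 1317). The gene at an unadjusted p under 0.05 was Fbp1, fructose bisphosphatase, with 11834, 14656, 12371, 18838 and 11269.6 at 0.1% and 12252, 11462, 11123, 10894 and 10568 at 0.5% (−0.27 ± 0.12, or −0.15 without replicate 4 of 0.1%), and its difference turned to 0.04 with quantile normalization. Without that array Pck1 was at −0.13 and G6pc at 0.12, and with quantile normalization at −0.09 and 0.13.

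Insulin-regulated genes had wider intervals. Igfbp1, an insulin-repressed binding protein of IGF, had 1865, 1315, 5508, 5484 and 8074 at 0.1% and 6082, 1514, 5282, 2098 and 9259 at 0.5%. Each dose held mice at low and at high levels, and the difference was 0.13 ± 0.55 (interval −1.02 to 1.28). Irs2, an insulin receptor substrate, differed by 0.23 ± 0.28, Srebf1, the gene of the lipogenic factor SREBP-1, by 0.13 ± 0.31, and Igf1 by −0.18 ± 0.10 (interval −0.39 to 0.03). For the lipid synthesis genes Fasn and Scd1, fatty acid synthase and stearoyl-CoA desaturase, the differences were −0.33 ± 0.57 and 0.13 ± 0.62. Fasn ranged from 204 to 3252 at 0.1% and from 251 to 2062 at 0.5%. Fatty acid synthesis as a list had 10 of 22 genes above 0 and a median of −0.02, and Fads2, the delta-6 desaturase, was the member at an unadjusted p under 0.05 (−0.44 ± 0.15, adjusted p = 0.753). Without replicate 4 of 0.1% Igfbp1 was at 0.28, Irs2 at 0.04 and Scd1 at 0.21. With quantile normalization Igfbp1 was at 0.22, Scd1 at 0.30, Igf1 at −0.08 and the median of the list at 0.03.

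Cpt1a, which admits fatty acids to mitochondrial oxidation, differed by −0.04 ± 0.12 with an interval of −0.28 to 0.21. Cyp4a14, a fatty acid hydroxylase and PPAR-alpha target, had 1014, 964, 4055, 4074 and 6103 at 0.1% and 4737, 734, 2491, 807 and 3877 at 0.5% (−0.37 ± 0.90, interval −2.25 to 1.51), so that a difference of 2-fold in either direction is compatible with these arrays. The hormone gene Fgf21 differed by −0.40 ± 0.34. Cyp7a1, the rate-limiting enzyme of bile acid synthesis, had 155, 218, 803, 689 and 803 at 0.1% and 1702, 264, 671, 523 and 1309.7 at 0.5%. The highest values were those of 0.5% replicates 1 and 5, the lowest those of 0.1% replicates 1 and 2 and 0.5% replicate 2, and the difference was 0.73 ± 0.49 (interval −0.29 to 1.75, adjusted p = 0.828). The remaining panel genes were Cdkn1a, the p53 target p21 (0.13 ± 0.28), the clock output gene Dbp (0.18 ± 0.31), Nnmt, which methylates nicotinamide (0.04 ± 0.47), the female-biased cytochrome Cyp2b9 (−0.49 ± 0.62) and the metallothionein Mt1 (0.23 ± 0.73). Without replicate 4 of 0.1% Cpt1a was at −0.06, Cyp4a14 at −0.20, Nnmt at 0.10 and Mt1 at 0.46, and with quantile normalization Cpt1a turned to 0.02 and Mt1 was at 0.37.

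**Figure D2:**
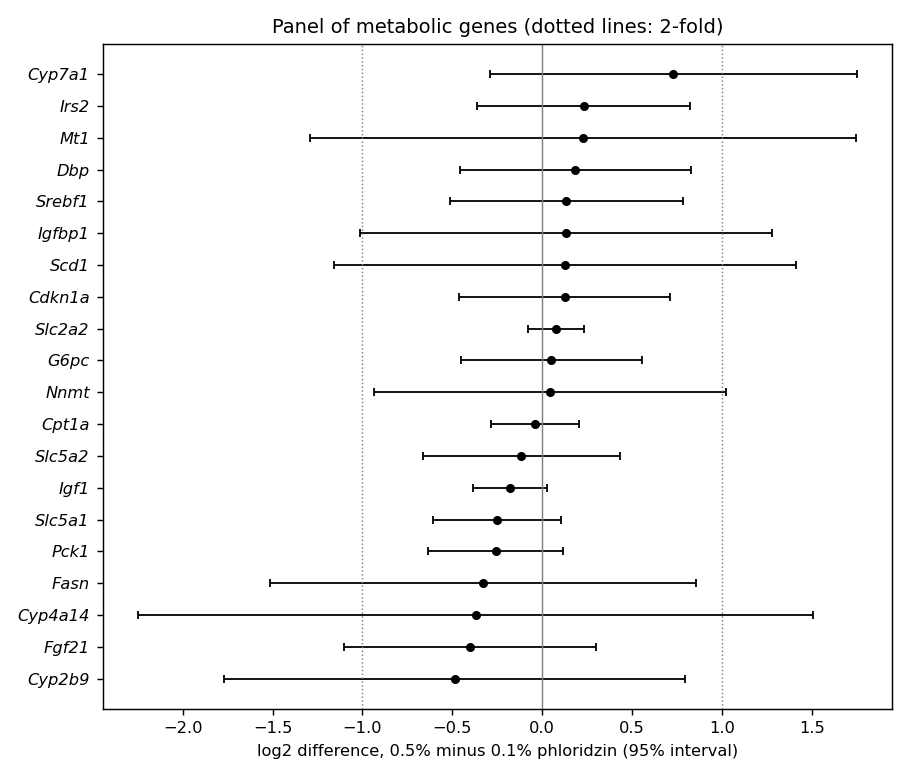
Difference between the doses for the 20 panel genes, as log2(signal + 16) of 0.5% minus 0.1%, with the 95% interval from limma. Every interval holds 0, that of Slc2a2 is among the narrowest and that of Cyp4a14 the widest, and the dotted lines mark 2-fold either way.

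Genes with abundant liver transcripts had lower mean values at 0.5%, and the size of this moved with replicate 4 of 0.1%. Of 10 measured hepatocyte markers, 9 differences lay below 0 and 6 had an unadjusted p under 0.05 (2.26% of all genes), with a median of −0.29. The mean log2 level of the list was 12.98, 13.27, 13.13, 13.88 and 12.99 in replicates 1 to 5 at 0.1% and 13.08, 12.93, 12.95, 12.88 and 13.02 at 0.5%. Replicate 4 of 0.1% was the highest of the 10 arrays, and the other 9 lay between 12.88 and 13.27. Without it the median was −0.15 with 0 of 10 at an unadjusted p under 0.05, and with quantile normalization −0.03 with 4 of 10 above 0. Cps1, the entry enzyme of the urea cycle, had 10131, 12072, 11319, 17618 and 10226 at 0.1% and 11022, 8719, 9583, 8888 and 9803 at 0.5% (−0.33 ± 0.12, or −0.19 without that array). Cyp2e1, a pericentral cytochrome, had 12906, 17148, 13761, 30644 and 11227 at 0.1% and 13970.5, 12585, 11696, 10950.4 and 11156 at 0.5% (−0.41 ± 0.20, or −0.18 without it).

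**Figure D3:**
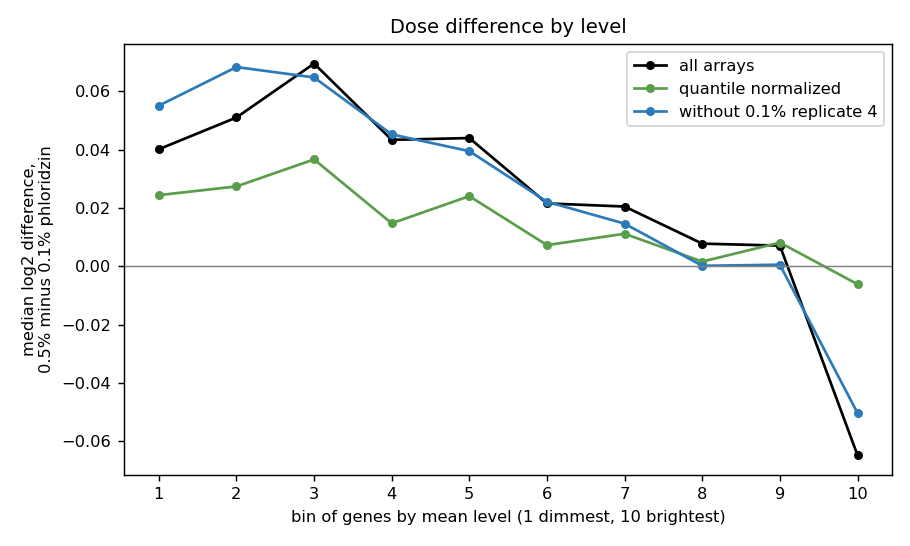
Median difference between the doses (0.5% minus 0.1%, log2) in 10 equal bins of the genes by mean level, dimmest at the left, for all arrays (black), after quantile normalization (green) and without replicate 4 of 0.1% (blue). The brightest bin, with mean signals from 819.6 to 16173, has a median of −0.06, or −0.05 without that array and −0.01 with quantile normalization.

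These bins were formed after the data were seen. In the brightest bin, 68.4% of 1295 genes had a difference below 0, against 44.7% of all genes. Of the lists of metabolic genes, those of amino acid breakdown, lipoproteins and fatty acid oxidation had medians below 0, while glycolysis (0.06), glycogen (0.02), cholesterol synthesis (0.01) and fatty acid synthesis (−0.02) lay near the 0.02 of all genes. Without replicate 4 of 0.1% glycogen was at −0.05 and cholesterol synthesis at −0.01. Amino acid breakdown and the urea cycle had 29 of 31 genes below 0, 8 at an unadjusted p under 0.05 and a median of −0.21, and −0.12 with 2 such genes without replicate 4 of 0.1%. With quantile normalization the median was −0.09 with 26 below 0. Gnmt, the glycine methyltransferase of the methionine cycle, had 9838, 13214, 10752, 19519 and 9934 at 0.1% and 10770.5, 8633, 9063, 8489 and 8987 at 0.5% (−0.41 ± 0.15, or −0.25 without it). Bckdha, of branched-chain amino acid breakdown, had 1088, 1356, 1342, 1307 and 1518 and 1242, 902, 1094, 1063 and 1127, with replicate 1 of 0.1% among the 0.5% mice. It differed by −0.28 ± 0.10, or −0.28 without replicate 4 of 0.1%. Arg1, arginase, differed by −0.30 ± 0.13 (−0.19 without it) and Hal, histidase, by −0.39 ± 0.17 (−0.41).

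Lipoprotein genes had a median of −0.20 with 14 of 18 below 0 and 6 at an unadjusted p under 0.05, and −0.15 with 2 without replicate 4 of 0.1%. With quantile normalization it was −0.06 with 11 of 18 below 0 and 1 lower at that p. Apoa4, an apolipoprotein induced in steatosis, had 3712, 4383, 4673, 5431 and 5032 at 0.1% and 2869, 4903, 3232, 3443 and 2737 at 0.5%. Replicate 2 of 0.5% overlapped the lower dose, and the difference was −0.45 ± 0.15, or −0.39 without replicate 4 of 0.1% (adjusted p = 0.753 with it). Apoc2, the activator of lipoprotein lipase, differed by −0.33 ± 0.12 (−0.25 without it). Acute phase genes had a median of −0.17 with 5 of 24 lower at an unadjusted p under 0.05, and −0.13 with 0 lower without that array. With quantile normalization it was −0.03 with 13 of 24 below 0. Hemopexin (Hpx) and fibrinogen beta (Fgb) were the named members (−0.37 ± 0.16 and −0.30 ± 0.13). They were at −0.18 and −0.18 without that array and at −0.04 and 0.01 with quantile normalization, where fibrinogen beta thus turned sign. The receptor gene Ahr differed by −0.29 ± 0.11 and the cytochrome gene Cyp3a11 by −0.43 ± 0.17 (−0.22 without it), in a list of xenobiotic genes with a median of −0.14 and 20 of 25 below 0. Of that list 5 genes were lower at an unadjusted p under 0.05, and 1 without that array (median −0.11, 17 of 25 below 0) or with quantile normalization (median −0.06).

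The lists of fatty acid oxidation, oxidative phosphorylation and the tricarboxylic acid cycle had medians below 0 as well, with overlapping list means at the doses. Below 0 were 44.7% of all genes and 68.4% of the brightest bin, and 2.26% of all genes were lower at an unadjusted p under 0.05. The tricarboxylic acid cycle had 16 of 20 genes below 0, 0 at that limma p and a median of −0.10. With quantile normalization its median was −0.05 with 14 below 0. Fatty acid oxidation and ketogenesis had 26 of 31 genes below 0 and 7 lower at an unadjusted p under 0.05 (median −0.15), and 25 of 31 and 4 without replicate 4 of 0.1% (median −0.09). With quantile normalization the median was −0.07 with 20 of 31 below 0. Cpt2, the inner carnitine transferase, had 974, 1424, 1417, 1402 and 1402 at 0.1% and 1104, 959, 1122, 1045 and 960.5 at 0.5%. Replicate 1 of 0.1% lay among the 0.5% mice and the other 4 above all of them (−0.34 ± 0.11, or −0.31 without replicate 4, adjusted p = 0.753 with it), but its other probe set went the other way. Hadh, a hydroxyacyl-CoA dehydrogenase, differed by −0.32 ± 0.11 (−0.20 without it).

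Oxidative phosphorylation had 37 of 43 genes below 0 and 6 lower at an unadjusted p under 0.05, with a median of −0.13. Without replicate 4 of 0.1% the median was −0.09, still with 37 below 0, and with quantile normalization −0.04 with 27 below 0. The complex III gene Uqcrc1 had 2640.4, 3141, 3283, 3639.9 and 3629 at 0.1% and 3060.1, 2402, 2821, 2618 and 1714 at 0.5% (−0.39 ± 0.13, adjusted p = 0.753). Replicate 1 of 0.1% lay among the 0.5% mice. The ATP synthase gene Atp5g1 differed by −0.28 ± 0.10. Other members named by their p were Akr1d1 of bile acid synthesis (−0.39 ± 0.14), the bile acid exporter subunit Slc51b (−0.47 ± 0.16), the glutathione transferase Gstt1 (−0.25 ± 0.09) and Ugp2 and Pgm2, which interconvert sugar phosphates for glycogen (−0.24 ± 0.10 and −0.26 ± 0.11). Quantile normalization brought the differences of several abundant genes nearer to 0: Cps1 was at −0.03, Cyp2e1 at −0.03, Arg1 at −0.05, Gnmt at −0.12, Hadh at −0.11, Cyp3a11 at −0.10, Ugp2 at −0.12, Apoc2 at −0.18 and Gstt1 at −0.16.

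Cell cycle genes had higher mean values at 0.5%: 23 of 26 measured genes lay above 0 (55.3% of all genes), with a median of 0.17, and 3 had an unadjusted p under 0.05 (4.23% of all genes), or 1 without replicate 4 of 0.1%. The count of 23 also held with quantile normalization, with median centring and without replicate 4 of 0.1%, and with each array left out in turn the median ran from 0.14 to 0.27. The mean log2 level of the list was 5.79, 5.87, 5.53, 5.53 and 5.61 at 0.1% and 6.08, 6.09, 5.73, 5.88 and 5.59 at 0.5%, so the doses overlapped. Genes at low levels leaned the same way as this list. In bins 3 and 4 by level, with mean signals from 18.9 to 54.7, 35.9% and 38.2% of genes lay below 0, against 44.7% of all genes. Ccne1, cyclin E1, had 11.5, 13.9, 24.4, 32.7 and 37.0 at 0.1% and 70.1, 46.4, 48.1, 33.9 and 58.4 at 0.5%. Replicate 5 of 0.1% exceeded replicate 4 of 0.5%, and the difference was 0.78 ± 0.25 (interval 0.26 to 1.29, adjusted p = 0.753). Ccna2, cyclin A2, had 27.0, 36.9, 11, 20.3 and 28.6 at 0.1% and 33.3, 47.2, 32.2, 40.4 and 21.4 at 0.5% (0.33 ± 0.15, adjusted p = 0.759), with wide overlap.

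Other regulators had single members at an unadjusted p under 0.05. The glucocorticoid receptor gene Nr3c1 had 324, 321, 346, 187 and 219 at 0.1% and 274, 384, 343, 371 and 348 at 0.5%. Replicates 4 and 5 of 0.1% were the lowest arrays and the others overlapped (0.31 ± 0.15, or 0.19 without replicate 4, adjusted p = 0.762 with it). Cish, a growth hormone-induced inhibitor of STAT5 signalling, had 33.0, 46.6, 50.6, 39.8 and 33.1 at 0.1% and 48.5, 84.8, 42.4, 104 and 58.3 at 0.5%, with replicates 2 and 4 of 0.5% highest (0.52 ± 0.19). Atf4, the factor of the integrated stress response, differed by 0.29 ± 0.14, and of the p53 targets, Ercc5, a repair nuclease, by 0.30 ± 0.11 and Btg2 by −0.39 ± 0.14. The male-biased Mup3 and the female-biased repressor Cux2 differed by −0.51 ± 0.18 and −0.69 ± 0.27, with Mup3 at −0.25 under quantile normalization. The adjusted p of these genes was 0.753 to 0.762.

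The markers of other liver cells had overlapping summed signals at the doses. For 14 Kupffer cell and macrophage genes the sum was 3687 to 5744 at 0.1% and 4072 to 5166 at 0.5%, with 7 differences above 0. Adgre1, the macrophage receptor F4/80, was the member at an unadjusted p under 0.05 (0.32 ± 0.12). For 12 genes of sinusoidal endothelium the sums were 2625 to 3273 and 2545 to 2941, with the nuclease gene Dnase1l3 at −0.34 ± 0.15, and for 15 stellate cell and fibrosis genes 3178 to 4524 and 3466 to 4388, with the collectin Colec11 at 0.32 ± 0.13. Pericentral hepatocyte genes had a median of −0.11 (−0.07 without replicate 4 of 0.1%), with the ammonium transporter Rhbg at −0.30 ± 0.12, and periportal genes −0.09. Tspan8 of the cholangiocyte list (−0.38 ± 0.15) and the lipid droplet gene Cidec of the adipocyte list (−0.34 ± 0.15) had small signals. Lymphocyte and neutrophil lists had 0 members at an unadjusted p under 0.05.

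Mice of the same dose differed widely for some genes. Across genes, which are not independent replicates, arrays correlated at 0.967 to 0.987 within 0.1%, 0.964 to 0.986 within 0.5% and 0.964 to 0.987 between the doses, and 7 of 10 arrays were nearest to an array of the other dose. The first principal component held 40.2% of the variance, with scores of 27.5, 22.8, −14.9, −6.84 and −22.9 at 0.1% and −17.1, 27.3, −11.9, 18.7 and −22.6 at 0.5%. Each dose thus had mice at both ends of it. An SD above 1 log2 unit was found for 48 genes within 0.1% and 54 within 0.5%, of which 34 were shared (70.8% and 63.0%). The 50 genes with the highest SD at 0.1% had a median SD of 1.09 at 0.5% (0.22 over all genes).

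The 20 genes with the widest spread within a dose, chosen after their values were seen, include sex-biased and nutrient-responsive genes. Hsd3b5, a male-biased steroid dehydrogenase, had signals of 2669, 629, 65.5, 199 and 8.45 at 0.1% and 11.9, 2962, 416, 1485 and 106 at 0.5%. Replicates 1 and 2 of 0.1% and replicates 2 and 4 of 0.5% were the highest, replicate 5 of 0.1% and replicate 1 of 0.5% were under the median signal of their arrays, and the dose difference was 0.63 ± 1.28 (interval −2.03 to 3.29). The STZ mice on plain diet also ranged widely (21.3, 137 and 3504 as lowest, median and highest), and the untreated mice lay closer together (5285, 5846 and 6986). The fatty acid elongase Elovl3 had 2353, 1045, 192, 357 and 61.4 at 0.1% and 46.1, 3086, 931, 879 and 109.9 at 0.5% (0.09 ± 0.90). The male-biased hydroxylase Cyp4a12a had 1732, 789, 182, 261 and 59.5 and 64.7, 2131, 422, 1291 and 107 (0.21 ± 0.88). The same 4 mice were highest for Cyp4a12a, and for Elovl3 replicate 3 of 0.5% came before its replicate 4. The anion transporter Slco1a1 (0.36 ± 0.80), the adipokine gene Serpina12 (0.34 ± 0.83), the water channel gene Aqp8 (−0.10 ± 0.56) and the activin subunit Inhbe (−0.32 ± 0.57) also had replicate 2 of 0.5% and replicate 1 or 2 of 0.1% as the highest mice of their dose. With replicate 4 of 0.1% left out, Elovl3 was at 0.04, Cyp4a12a at 0.12 and Aqp8 at −0.15.

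Another set of these genes had its lowest values in those mice. Sult1e1, the estrogen sulfotransferase, had 54.0, 57.7, 554, 502 and 789 at 0.1% and 574, 53.6, 277, 76.8 and 1073 at 0.5%. Replicates 1 and 2 of 0.1% and 2 and 4 of 0.5% were the 4 lowest, and the interval of the difference was −1.82 to 1.81. The leptin receptor gene Lepr had 58.0, 20.3, 369.6, 267 and 726 and 556, 93.5, 125, 58.5 and 932 (0.30 ± 0.81), and Noct, a rhythmic NADP phosphatase, 193, 119.5, 1305, 1226 and 1352 and 1174, 199, 1261, 271 and 1128 (0.15 ± 0.64). The same 4 mice were the lowest for both. Alas1, the first enzyme of heme synthesis (−0.30 ± 0.54), the oxysterol hydroxylase gene Cyp39a1 (−0.23 ± 0.72), the growth factor gene Nrg4 (0.35 ± 0.55) and the xenobiotic cytochrome Cyp2b10 (−0.13 ± 0.60) were wide too. The heat shock gene Hspa1b and the early response gene Egr1 had other orders, Hspa1b with replicate 3 highest in both doses (2615 and 1964) and Egr1 with replicate 5 of 0.5% highest (1307). Alas1 turned to 0.01 and Cyp2b10 to 0.02, Lepr was at 0.46, Noct at 0.43 and Cyp39a1 at −0.13 without replicate 4 of 0.1%.

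**Figure D4:**
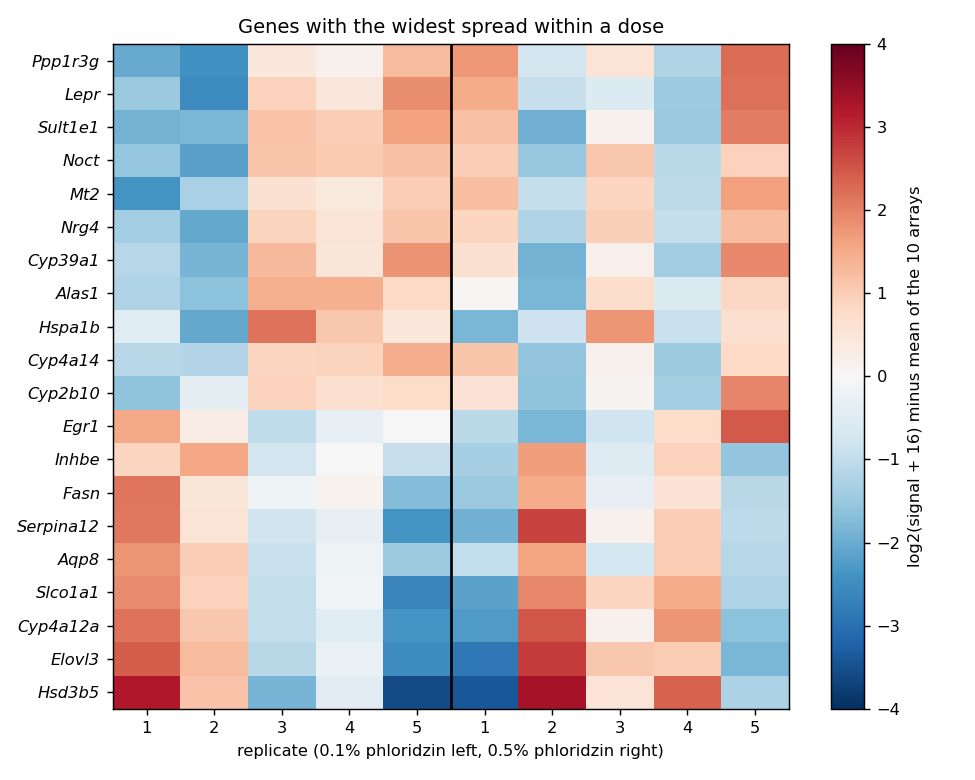
Level of the 20 genes with the widest spread within a dose in each of the 10 mice, as log2(signal + 16) minus the gene's mean over the 10 arrays (colour), with the 0.1% mice left and the 0.5% mice right of the line. Hsd3b5 is highest in replicates 1 and 2 of 0.1% and 2 and 4 of 0.5%, and Sult1e1 is lowest there.

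Metallothioneins, which bind zinc and copper and are induced by metals, glucocorticoids and fasting, were among the genes low in those mice. Mt1 had 958, 2335, 7235, 7723 and 8511 at 0.1% and 8354, 1786, 6529.6, 2608 and 9286 at 0.5%, and Mt2 had 294, 652, 2462, 2139 and 3241 and 3777, 833, 2961, 776 and 5092. The 4 mice lowest for Mt1 were also the 4 lowest for Mt2, and the dose differences were 0.23 ± 0.73 and 0.69 ± 0.79 with intervals of −1.29 to 1.75 and −0.96 to 2.33. The list of glucocorticoid receptor targets, which holds both genes, was lowest in the same 4 mice, as given below. The 250 bases before the RefSeq starts of the 2 genes (GRCm38.p6) are shown. A part of these bases in the shared order of the mice was not tested. Mt2 is at chr8:94172368-94172617 and Mt1 at chr8:94178839-94179088, both on the plus strand, 5′ to 3′. Capitals mark the core of the metal response element, TGCACNC or TGCGCNC with N any base, on either strand.
Mt2: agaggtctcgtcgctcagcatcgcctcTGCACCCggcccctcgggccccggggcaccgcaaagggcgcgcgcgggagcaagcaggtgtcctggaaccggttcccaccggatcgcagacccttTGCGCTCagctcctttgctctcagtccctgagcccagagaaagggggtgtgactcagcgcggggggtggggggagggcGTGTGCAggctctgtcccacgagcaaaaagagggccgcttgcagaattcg
Mt1: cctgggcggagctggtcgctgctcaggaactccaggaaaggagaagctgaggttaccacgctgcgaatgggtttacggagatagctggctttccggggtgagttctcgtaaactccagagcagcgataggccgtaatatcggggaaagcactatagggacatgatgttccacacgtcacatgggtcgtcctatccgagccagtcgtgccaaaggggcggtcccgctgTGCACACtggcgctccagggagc
The core occurs 3 times in the Mt2 window, a number reached by 1.26% of 32851 such windows, and 1 time in the Mt1 window, as in at least 1 place in 21.4% of them. A match is a run of letters, not a measured binding site. The windows end at the RefSeq start, and the match in the Mt1 window lies close to that end. Bases past it were not searched, so the counts do not give the number of such elements in the promoter of either gene.

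The means of whole lists varied in the same way, but several lists hold genes just chosen for their wide spread. Hsd3b5, Elovl3, Cyp4a12a and Slco1a1 are in the male-biased list, and Sult1e1 and Cyp39a1 in the female-biased list. Noct is in the circadian list and Mt2 in that of glucocorticoid receptor targets. For these lists the shared order of the mice is partly built in. The mean log2 level of 17 male-biased genes was 10.44, 9.95, 9.08, 9.41 and 8.35 in replicates 1 to 5 at 0.1% and 8.56, 10.56, 9.74, 10.15 and 8.76 at 0.5%, and that of 17 female-biased genes 6.98, 7.28, 8.15, 7.99 and 8.32 and 8.10, 6.94, 7.59, 7.16 and 8.32. Replicates 1 and 2 of 0.1% and 2 and 4 of 0.5% held the 4 highest male-biased and the 4 lowest female-biased means. The medians between the doses were 0.09 and −0.03, the latter 0.03 without replicate 4 of 0.1%. Cholesterol synthesis genes had means of 9.07, 8.64, 7.91, 8.11 and 7.54 at 0.1% and 7.85, 8.75, 8.01, 8.69 and 7.95 at 0.5%, with a median difference of 0.01, and interferon response genes 7.73, 7.76, 7.01, 7.22 and 6.87 and 6.95, 7.79, 7.12, 7.70 and 7.06, with 0.00 (−0.03 without replicate 4 of 0.1%). The same 4 mice were highest for both. For 24 circadian genes, whose transcripts follow the hour of the day, the means were 7.19, 7.25, 7.86, 7.76 and 7.70 at 0.1% and 7.74, 7.25, 7.82, 7.52 and 7.95 at 0.5%, lowest in those 4 mice, with 18 genes above 0 between the doses and a median of 0.13. The part of hour, cage and blood glucose in these differences between mice was not tested.

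Against the STZ mice on plain diet, limma called 0 of 12947 genes (0%) at either dose, with smallest adjusted p of 0.921 for 0.1% and 0.859 for 0.5% and 685 (5.29%) and 622 (4.8%) genes at an unadjusted p under 0.05. Both comparisons share the 5 STZ arrays, so their values are only set side by side. Lin54 differed from STZ by −0.31 at 0.1% and 0.21 at 0.5%, and Tgfbr1 by −0.16 and 0.25. Rara differed by 0.54 and −0.32, and Camkk2 by 0.46 and 0.12. For the first 3 genes the STZ mean thus lay between the doses, and for Camkk2 it lay below both. Cyp7a1 was at −1.14 and −0.41, Pck1 at 0.14 and −0.12 and Slc2a2 at −0.03 and 0.04. The median over the hepatocyte list was 0.30 at 0.1% and 0.05 at 0.5%, the former with replicate 4 in it, and over the cell cycle list −0.04 and 0.15.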

How the data were processed

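Each of 45101 probe sets of an Affymetrix mouse array came with an intensity deposited by the authors. This is a linear signal, scaled to a trimmed mean of 100 on each array, as read from the values. The software that made them and any detection calls are not given in the sources used here. Left out were 64 control probe sets, 9160 with no listed gene and 932 with several genes. The other 34945 named 18193 genes, and 34741 of them were found by gene ID in the reference table, which changed 0 symbols.

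Values were taken as log2(signal + 16). A gene with several probe sets was read from the brightest by mean over all 20 arrays. Genes whose mean was under the 40th percentile over probe sets, at 8.48 signal units, were dropped, which left 12947. The 4 group means were fitted together with limma 3.58.1 in R 4.3.3 (lmFit, eBayes), two-sided, with 16 residual and 4.56 prior degrees of freedom. Adjusted p used the Benjamini-Hochberg method across the 12947 genes, with calls under 0.05. The exact permutation test of 5 against 5 arrays was two-sided. The script was tested on simulated data. Figures were drawn with matplotlib 3.10.9.

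The genes named were the 10 smallest p in each direction, the 5 largest differences in each direction, up to 2 members per list with an unadjusted p under 0.05, and a panel of 24 genes, of which 20 were kept. Lists (28 of pathways and 15 of cell types) and panel were chosen with earlier results of these data known. Of 873 list entries 742 were kept. The lists are described by counts and medians, with no set test. Replicate numbers of the doses belong to different mice, and the labels name no pairing by number. Deviations of same-numbered arrays correlated at −0.41 to 0.47, which does not decide whether they are paired. The labels do not give the cage of a mouse. With the dose in the diet and 3 mice per cage, differences between cages cannot be told apart from those between doses. The p-values treat the mice as independent and measure only the spread between these mice.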

Additional observations from a re-analysis of the deposited data

Results flagged for a closer look

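Of 208 groups of 5 arrays of the named genes, 8 held an array far from the other 4 (a gap of more than 0.71 of the group's range, which chance gives in about 1 of 20 groups). At 0.1%, Gm26910 was at 8.41 in replicate 4 against 16.9 to 20.4, Cpt2 at 974 in replicate 1 against 1402 to 1424 and the clock output gene Dbp at 615 in replicate 1 against 1006 to 1109. At 0.5%, replicate 1 was apart for Gnmt (10770 against 8489 to 9063), Btg2 (214 against 123 to 139), Cpt1a (2815 against 2263 to 2396) and Slc5a1 (1.56 against 10.7 to 13.3), and Hadh was at 6321 in replicate 2 against 7280 to 7681.

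Replicate 4 of 0.1% was apart from the other arrays of its dose in its mean signal (224 against 185 to 195), its highest signal (37014 against 14117 to 19414) and the hybridisation controls bioB (1253 against 217 to 308), bioD (14067 against 3173 to 4431) and cre (33369 against 10401 to 14732). Its part in the lower mean values of abundant liver genes at 0.5% was measured by leaving it out, as given above. The ratio of the 3′ to the 5′ actin control was 1.68 to 2.13 at 0.1% and 1.81 to 2.52 at 0.5%. It was highest in replicates 3 (2.52) and 5 (2.30) of 0.5%. That of Gapdh was 0.68 to 0.73 at 0.1% and 0.70 to 0.80 at 0.5%. The part of these ratios in the dose differences was not tested.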

How the results depend on the processing

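In 21 alternatives limma called 0 genes between the doses, and also 0 at an adjusted p under 0.1. They changed the normalization, filter, probe set rule, pseudocount, spread estimate or arrays in the fit, added the replicate number as a block, or left out an array. The smallest adjusted p ran from 0.16 (no filter, for Fzd9) to 0.926 (only the 10 phloridzin arrays). Genes lower at an unadjusted p under 0.05 numbered 292, but 189 with only the 10 phloridzin arrays, and 180 (without replicate 4 of 0.1%) to 393 with an array left out. Genes higher numbered 449 to 631 with an array left out, and 454 with only the 10 phloridzin arrays. Higher genes made up 71.4% without replicate 4 of 0.1%. Genes whose arrays did not overlap numbered 171 to 287 with an array left out, where 4 arrays face 5, against 104. Intervals within 2-fold made up 97.4% to 98% of genes with an array left out and 79.3% with a pseudocount of 1. With the replicate number as a block, 0 genes were called (smallest adjusted p 0.246), 623 were higher and 329 lower at an unadjusted p under 0.05. Same-numbered arrays correlated above 0.1 in 3 of 5 pairs. These correlations cannot decide whether the numbers pair mice, since unpaired arrays can also correlate through the wide spread along the first principal component. Against STZ 0 genes were called in each alternative run. Of the 104 named genes, 29 changed sign in at least 1 alternative, 87 of 2170 values in all, and 0 were called. Precision is limited by 5 arrays per dose, and dim genes lie near the array median, where the files give no detection calls.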
